A study of Xenopus laevis with 10 samples.

Results

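The autophagy machinery of the Xenopus laevis tadpole intestine was read from the genes whose deposited description holds one of these strings: autophagy, unc-51 like, serine/threonine-protein kinase ULK, beclin, GABA(A) receptor-associated protein, microtubule-associated proteins 1A/1B light chain 3, WD repeat domain phosphoinositide-interacting, or sequestosome. Case was ignored, and genes of the same families whose descriptions are spelled otherwise are given separately. The strings matched 111 transcripts of 50 genes, among 34267 genes in all, and each gene was read through its transcript with the highest total count. Of the 50 genes, 41 had enough reads to be tested, and the other 9 had between 0 and 11 counts summed over all 10 libraries.

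The study sequenced RNA of whole intestinal tubes from fed and from unfed tadpoles kept at 19 °C, with 20 to 26 tubes pooled for each stage. The groups were fed tadpoles at 10 days post fertilization (dpf, 2 libraries), at 13 dpf (2) and at 16 dpf (1), and unfed tadpoles at the same ages in the same numbers. No strain, feed or hour of collection is given in the sources used here. The labels divide the libraries into 2 experiments, each with its own fed and unfed libraries, and the 16 dpf libraries belong to experiment 2. The columns of experiment 1 are headed F and NF, which were read as its fed and unfed libraries; the abbreviations are not spelled out, and the direction of all values of experiment 1 rests on this reading. For 2 libraries of experiment 1 the title and the stage field give different ages: fed 13 dpf has 10 dpf in the stage field, and unfed 10 dpf has 13 dpf. The age in the title was used. Separate clutches or tanks are not named in the labels, so that every p-value measures only the spread between these libraries.

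The libraries held 7004907 to 9942960 counts over the 34267 genes. Levels are given as CPM, the count scaled to these totals and rescaled between libraries by trimmed mean of M values (TMM). Genes that mark intestinal epithelium were abundant in both states: vil1.L, a brush border actin-binding protein gene, averaged 1548 CPM in fed, against 921 CPM in unfed libraries, and cdx2.L, an intestinal transcription factor gene, averaged 26.5 CPM in fed, against 22.2 CPM in unfed libraries. The enterocyte marker list made up 0.954% to 1.31% of gene counts in fed libraries, against 0.411% to 1.36% in unfed libraries. Of its 13 tested genes, 4 were higher and 2 were lower in fed libraries at an adjusted p under 0.05 by edgeR. Over all tested genes, 24.1% were higher and 24.6% were lower.

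Autophagy encloses cytoplasm in a double membrane, the autophagosome, and delivers it to the lysosome for breakdown. In vertebrates a kinase complex of ULK1 or ULK2 with ATG13, ATG101 and RB1CC1 starts the process, a phosphatidylinositol 3-kinase complex built around beclin 1 marks the growing membrane with a phosphoinositide, and ATG2, ATG9 and the WIPI proteins bring lipid to it. The proteins of the ATG8 family (the LC3 and GABARAP proteins) are trimmed by ATG4 proteases and attached to the membrane by ATG3, ATG7, ATG5, ATG12 and ATG16L1, and receptors such as sequestosome 1 tie cargo to them. Lack of nutrients is the classical trigger of autophagy, acting through the kinases mTORC1 and AMPK. Xenopus laevis is an allotetraploid frog, and many of its genes exist as an L and an S copy (homeologs), named for the longer and the shorter chromosomes.

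Transcripts of the autophagy machinery were mostly lower in fed than in unfed intestines. Over all ages, 27 of the 41 tested genes were lower in fed libraries and 5 were higher at an adjusted p under 0.05, with 9 not past that threshold. The background was 24.6% of all 23928 tested genes lower and 24.1% higher. The median log2 fold change of the 41 genes was -0.84, against -0.04 for all tested genes. Among genes past the low-count filter in both feeding states, the largest falls were in atg2b.S, atg2b.L and an ATG16-2-like gene, while 4 of 6 genes of the conjugation step were higher in fed libraries. In 15 of the 41 genes all 5 fed libraries lay below all 5 unfed libraries (background 13.6% of all tested genes), and in 1, atg16l1.L, all fed libraries lay above (background 15%). Of the 41 genes, 40 passed the low-count filter in either feeding state alone, and 26 of these 40 were lower in fed libraries. The test was edgeR's quasi-likelihood F test with experiment, age and feeding as terms and Benjamini-Hochberg adjustment over all tested genes. Without experiment as a replicate block, 2 genes in place of 5 were called higher. The 5 called higher were also the only ones higher at an unadjusted p under 0.05, and DESeq2 called 2 higher.

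Library composition moved with feeding as well. The leukocyte marker list, with 16 genes, made up 0.0132% to 0.0194% of gene counts in fed libraries, against 0.0240% to 0.0576% in unfed libraries. Of its 16 genes, 13 were lower in fed libraries. Over all tested genes, 24.6% were lower and 24.1% were higher. The enteric neuron and glia list made up 0.00696% to 0.00793% in fed, against 0.0106% to 0.0152% in unfed libraries, with 6 of 12 tested genes lower. The goblet and secretory list made up 0.0624% to 0.0983% in fed, against 0.0384% to 0.0591% in unfed libraries. Of its 4 genes, agr2.L, agr2.S and tff3.1.S were higher and spdef.S was not called, while muc2 and fcgbp were not found by name. Most of its counts came from agr2.L and agr2.S, with means of 280 and 521 CPM in fed, against 124 and 277 CPM in unfed libraries. The ranges of the liver, pancreas, red cell and smooth muscle lists overlapped between the states. Of the 14 smooth muscle and mesenchyme genes, 5 were higher and 1 was lower in fed libraries. That list made up 0.824% and 0.737% of gene counts in the fed libraries of experiment 1, against 1.19% and 0.834% in the unfed ones, and 1.48% to 1.496% in the fed libraries of experiment 2, against 0.693% to 0.969% in the unfed ones. No list had a gene at 0 in every library, while alb.S, a liver gene, and prss1.L, a pancreas gene, were at 0 in all unfed libraries and averaged 0.103 and 0.0304 CPM in fed ones. Both averages lie under the level of 3 counts (0.302 to 0.428 CPM before the rescaling by TMM). Neither gene had enough reads to be tested, and no difference between the states is read from them. The part of these cell types in the autophagy differences was not tested. In whole tissue, fewer cells of a type and less RNA per cell cannot be told apart.

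**Figure D1:**
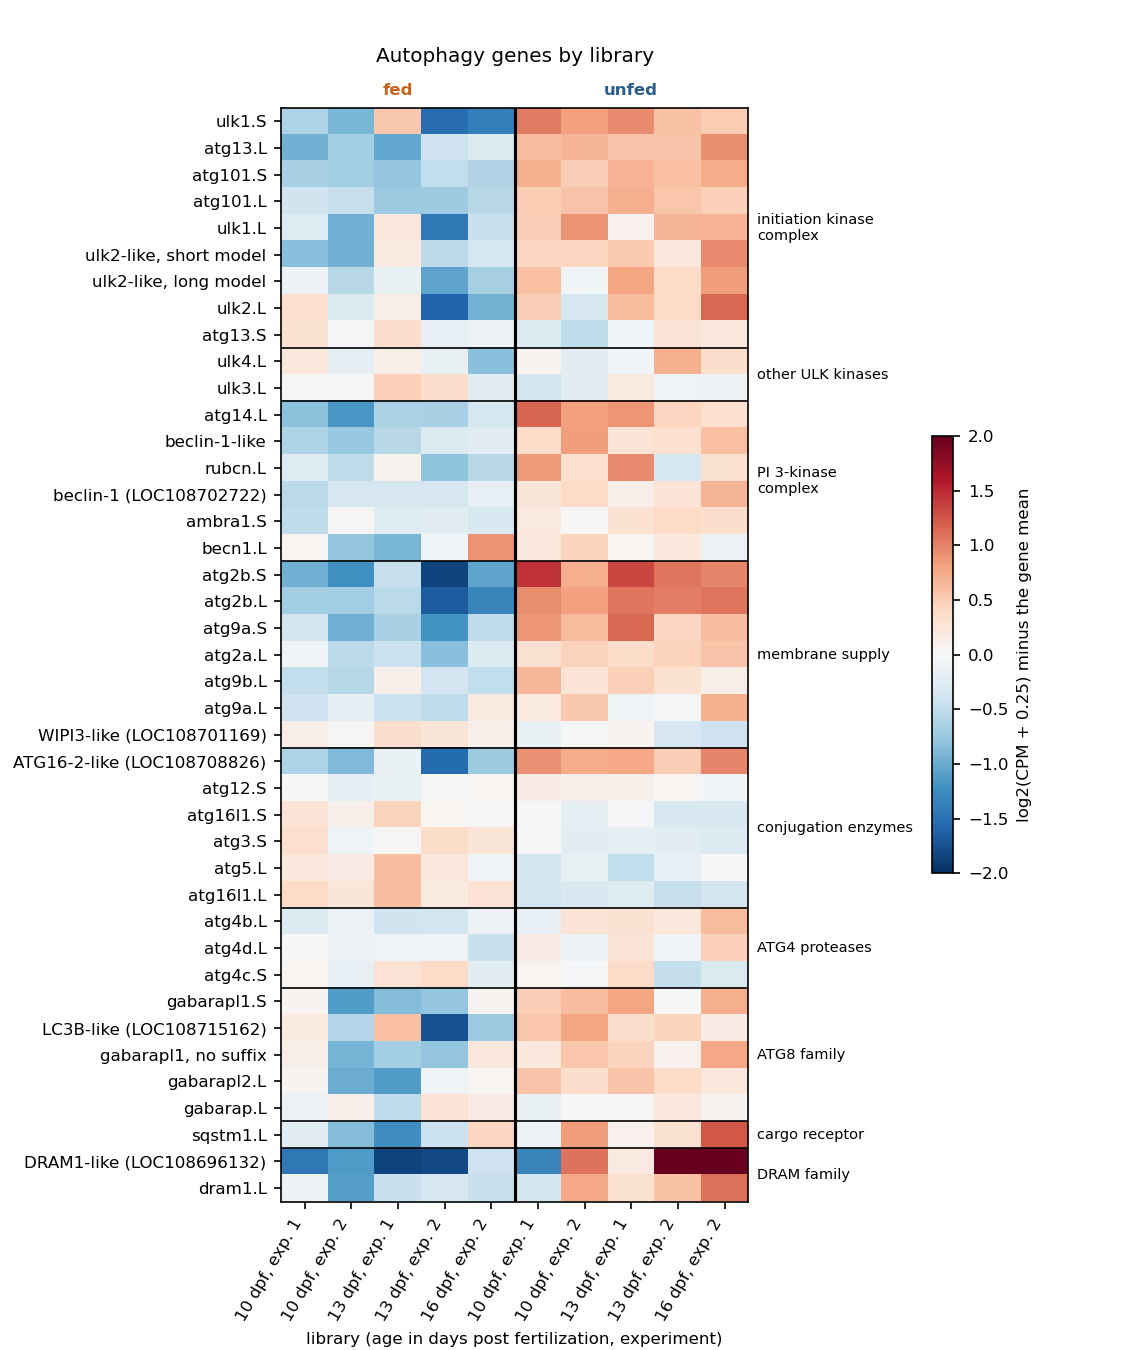
Level of each of the 41 tested autophagy genes in each library, as log2(CPM + 0.25) minus that gene's mean over the 10 libraries, with the 5 fed libraries left of the black line and the 5 unfed libraries right of it, grouped by role. Blue is below and red is above the gene's mean, and the colours end at 2 log2 units, so that the DRAM1-like gene runs past the scale. Most genes are blue in fed libraries and red in unfed ones, except in the conjugation group.

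Of the starting kinase complex, 8 of the 9 genes caught by description were lower in fed libraries and none was higher. Their median log2 fold change was -1.16. The background, here and for each role group below, was 24.6% of all tested genes lower and 24.1% higher. The summed level of the 9 genes was 61.6 ± 12.5 CPM in fed, against 127.7 ± 16.2 CPM in unfed libraries (SD, n = 5 each). ulk1.S encodes one of the kinases that start autophagy. It had 4.49, 3.62, 10.3, 2.28 and 2.59 CPM in the fed libraries, against 14.7, 12.6, 13.8, 10.6 and 10.1 CPM in the unfed libraries, where each set of 5 values runs, here and throughout, 10 dpf of experiments 1 and 2, 13 dpf of experiments 1 and 2, and 16 dpf of experiment 2. The fed 13 dpf library of experiment 1 stood apart from the other fed libraries and just reached the unfed range. The log2 fold change of ulk1.S, fed minus unfed, was -1.502 ± 0.27 (standard error, as throughout), with an adjusted p of 0.00121.

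atg13.L encodes a subunit of the starting kinase complex. It had 3.24, 3.98, 3.06, 4.83 and 5.33 CPM in fed libraries, against 10.2, 10.6, 9.77, 9.84 and 12.6 CPM in unfed libraries. Every fed library lay below every unfed one, and the log2 fold change was -1.39 ± 0.16 (adjusted p 6.81e-05). The S copy did not pass the test: atg13.S had 7.11, 5.54, 7.35, 5.10 and 5.33 CPM in fed libraries, against 4.70, 3.94, 5.52, 6.90 and 6.69 CPM in unfed libraries, and the ranges overlap (log2 fold change 0.14 ± 0.20, adjusted p 0.583).

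ATG101 binds ATG13 and keeps it stable. For its L copy the levels were 9.36, 8.92, 7.35, 7.37 and 8.37 CPM in fed libraries, against 17.7, 18.5, 20.7, 18.3 and 17.3 CPM in unfed libraries, a separation without overlap (log2 fold change -1.16 ± 0.14, adjusted p 7.55e-05). atg101.S was lower as well (-1.31 ± 0.13, adjusted p 2.46e-05). Per kilobase of transcript, atg101.L was the most abundant gene of this group, at 8.002 CPM per kilobase in fed, against 17.9 in unfed libraries. Also lower in fed libraries were ulk1.L (-1.16), ulk2.L (-0.91) and 2 gene models described as ULK2-like that carry no symbol, a long one of 5796 bases (-1.02) and a short one of 2747 bases (-1.04). These 2 models follow each other in the deposited annotation and how reads were divided between them is uncertain. The call of ulk2.L was lost when any library of 13 or 16 dpf was left out, for example with an adjusted p of 0.110 without the fed 16 dpf library and 0.109 without the unfed one.

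The 2 other kinases matched by name, whose human counterparts ULK3 and ULK4 are not part of the starting complex, did not pass the test. ulk3.L had 8.61, 8.32, 11.9, 10.9 and 7.31 CPM in fed libraries, against 6.52, 7.34, 9.67, 8.03 and 7.87 CPM in unfed libraries, overlapping ranges (log2 fold change 0.24 ± 0.15, adjusted p 0.197). ulk4.L had 1.07 to 2.49 CPM in fed, against 1.77 to 3.62 CPM in unfed libraries (-0.37 ± 0.29, adjusted p 0.326).

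Among the 6 genes of the phosphatidylinositol 3-kinase complex caught by description, 5 were lower in fed libraries and none was higher (median log2 fold change -0.76). The background was 24.6% of all tested genes lower and 24.1% higher. The summed level of the 6 genes was 66.9 ± 7.2 CPM in fed, against 122.5 ± 14.2 CPM in unfed libraries (SD, n = 5 each). The genes of the kinase itself have other descriptions and are not among the 6. Named after their values were seen, pik3c3.L (0.54 ± 0.15) and pik3r4.L (0.57 ± 0.14) were higher in fed libraries, and pik3r4.S was not called. ATG14 is the subunit that directs the complex to autophagy. Its gene atg14.L had 5.11, 3.98, 5.88, 5.77 and 7.15 CPM in fed libraries, against 20.9, 16.4, 17.1, 12.4 and 11.6 CPM in unfed libraries. The highest fed library was the one at 16 dpf and the lowest unfed library was also the one at 16 dpf, and the states did not overlap (log2 fold change -1.48 ± 0.20, adjusted p 1.74e-04).

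Beclin 1, the scaffold of the complex, was matched by 3 gene models. The model described as beclin-1-like had the highest level per kilobase of this group, at 9.04 CPM per kilobase in fed, against 17.8 in unfed libraries. It had 17.8, 16.2, 18.5, 22.7 and 23.4 CPM in fed libraries, against 35.8, 49.3, 33.2, 34.3 and 41.6 CPM in unfed libraries, without overlap (log2 fold change -0.97 ± 0.15, adjusted p 3.46e-04). The beclin-1 gene LOC108702722 on chromosome 9_10S was lower as well (-0.69 ± 0.13, adjusted p 0.00102), and becn1.L did not pass the test (-0.27 ± 0.30, adjusted p 0.482). The model becn1.L is only 752 bases long and lies next to the beclin-1-like model in the deposited annotation, so that the split of reads between them is uncertain. The remaining genes were rubcn.L, which encodes the inhibitor Rubicon (-0.84 ± 0.16, adjusted p 0.00116), and ambra1.S, which encodes a regulator of beclin 1 (-0.53 ± 0.19, adjusted p 0.0377). The call of ambra1.S was lost when any library other than the fed and unfed ones of 10 dpf, experiment 2, was left out (adjusted p up to 0.491 over all alternatives).

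Genes that bring membrane to the autophagosome were mostly lower in fed libraries. Of 7 genes caught by description, 6 were lower and 1 was higher in fed libraries, against 24.6% and 24.1% of all tested genes. The median log2 fold change of the 7 genes was -0.87. Their summed level was 74.9 ± 7.7 CPM in fed, against 132.8 ± 8.5 CPM in unfed libraries (SD, n = 5 each). ATG2 proteins are bridges that carry lipid from the endoplasmic reticulum. atg2b.S had 5.86, 4.82, 8.33, 3.08 and 5.48 CPM in fed libraries, against 31.9, 19.3, 29.6, 24.7 and 23.02 CPM in unfed libraries. The lowest fed library was 13 dpf of experiment 2, and no fed library came near the unfed range (log2 fold change -2.24 ± 0.17, adjusted p 6.62e-06). For atg2b.L the values were 6.24, 6.27, 6.98, 3.08 and 3.96 CPM in fed libraries, against 19.8, 18.3, 21.8, 21.2 and 21.8 CPM in unfed libraries. Both copies were thus lower in fed libraries, with -1.96 ± 0.20 for the L copy (adjusted p 3.13e-05), and the third ATG2 gene, atg2a.L, was lower too (-0.87 ± 0.15, adjusted p 6.61e-04).

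ATG9, a lipid scramblase carried on vesicles, is the only membrane-spanning protein of the core machinery in yeast. Its copy atg9a.S had 6.86, 4.46, 5.63, 3.75 and 6.24 CPM in fed libraries, against 16.8, 13.99, 20.2, 11.99 and 13.9 CPM in unfed libraries, with no overlap (log2 fold change -1.52 ± 0.16, adjusted p 3.46e-05). atg9a.L had 8.73, 10.4, 8.69, 8.18 and 13.4 CPM in fed libraries, against 13.5, 17.3, 11.05, 11.5 and 19.3 CPM in unfed libraries. Each fed library of atg9a.L was lower than the unfed library of the same age and experiment, but the fed 16 dpf library was above both unfed 13 dpf libraries (log2 fold change -0.55 ± 0.14, adjusted p 0.00650). atg9b.L was also lower in fed libraries (-0.75 ± 0.15, adjusted p 0.00208).

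LOC108701169, described as similar to WIPI3, a protein that binds the phosphoinositide mark, went the other way. It had 29.3, 27.4, 34.3, 31.6 and 28.8 CPM in fed libraries, against 24.3, 26.5, 27.8, 21.3 and 20.1 CPM in unfed libraries. The fed library was higher in all 5 pairs of the same age and experiment, with the ranges just touching (log2 fold change 0.34 ± 0.13, adjusted p 0.0455). This call was lost in 15 of 19 alternative analyses, with adjusted p-values up to 0.144, and held among single libraries left out only for the fed ones of experiment 1 and the unfed one of 10 dpf, experiment 2.

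**Figure D2:**
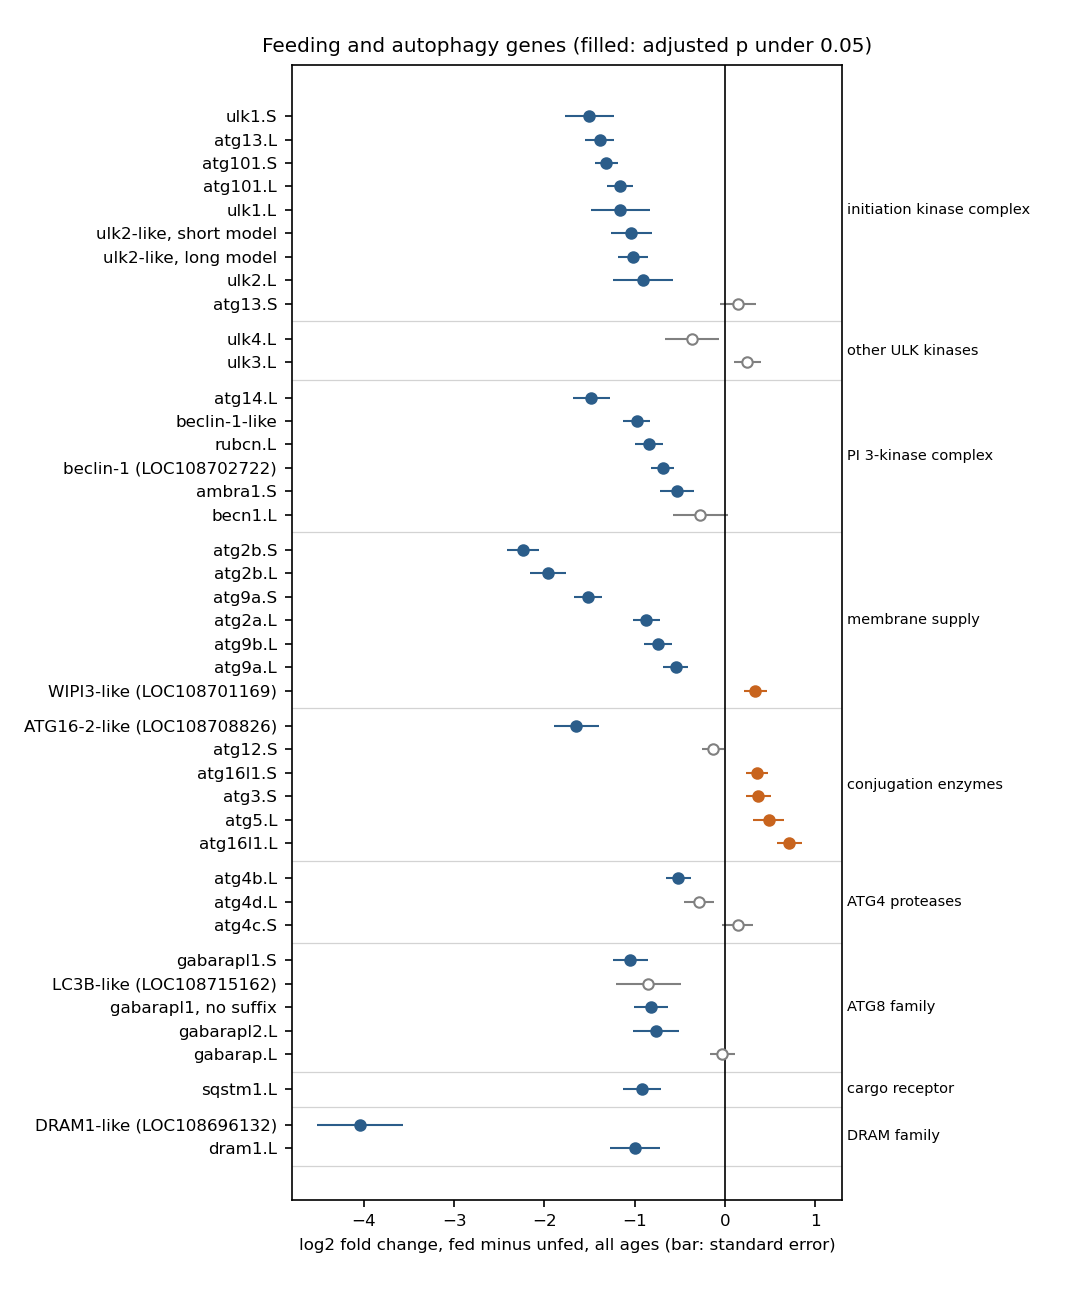
Log2 fold change, fed minus unfed over all ages, of each tested autophagy gene on the horizontal axis, with bars for the standard error, grouped by role. Filled points passed an adjusted p of 0.05 in edgeR's quasi-likelihood F test: 27 filled blue points lie left of 0 and 5 filled orange points lie right of it, 4 of them in the conjugation group.

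The conjugation step fixes ATG8 proteins to the membrane. Of its 6 genes caught by description, 4 were higher in fed libraries, 1 was lower and 1 did not pass (median log2 fold change 0.36). The background was 24.1% of all tested genes higher and 24.6% lower. The summed level of the 6 genes was 124.9 ± 9.1 CPM in fed, against 103.0 ± 5.2 CPM in unfed libraries (SD, n = 5 each). The largest part of this sum was atg3.S, at 59.8 CPM in fed, against 46.4 CPM in unfed libraries, whose call was less stable. ATG16L1 places the ATG12-ATG5 conjugate on the membrane. Its copy atg16l1.L had 14.1, 12.7, 16.5, 12.2 and 13.1 CPM in fed libraries, against 8.24, 8.56, 9.03, 7.69 and 8.26 CPM in unfed libraries. All fed libraries were above all unfed ones (log2 fold change 0.71 ± 0.14, adjusted p 0.00139), and this call held in all 19 alternative analyses.

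The other 3 genes called higher were less stable. atg16l1.S had 18.2, 16.2, 20.4, 15.4 and 14.9 CPM in fed libraries, against 15.05, 13.04, 14.7, 11.99 and 11.9 CPM in unfed libraries, higher in fed in each of 5 pairs (0.35 ± 0.12, adjusted p 0.0316). atg3.S, whose product is the E2-like enzyme of the step and which was the most abundant gene of this group per kilobase, had 66.4, 49.2, 53.4, 67.8 and 62.4 CPM in fed libraries, against 52.8, 45.1, 46.4, 44.6 and 43.3 CPM in unfed libraries. Here too the fed library was higher in each of 5 pairs, while the ranges of the states overlapped (0.37 ± 0.14, adjusted p 0.0452). atg5.L was higher in fed libraries in 4 of 5 pairs and slightly lower at 16 dpf (0.48 ± 0.17, adjusted p 0.0334). The calls of atg16l1.S, atg3.S and atg5.L were lost in 13, 13 and 11 of 19 alternative analyses, with adjusted p-values up to 0.102, 0.369 and 0.204 in the same order. Among single libraries left out, the call of atg16l1.S held only without a fed library of experiment 1, that of atg3.S only without fed 13 dpf or unfed 10 dpf of experiment 1 or fed 10 dpf of experiment 2, and that of atg5.L only without a 16 dpf library or unfed 10 dpf of experiment 2.

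atg12.S encodes the ubiquitin-like protein joined to ATG5, and it did not pass the test (-0.13 ± 0.12, adjusted p 0.385). LOC108708826, described as ATG16-2-like after the ATG16L1 relative ATG16L2, was the gene of this group that fell. It had 1.497, 1.21, 2.20, 0.670 and 1.37 CPM in fed libraries, against 4.79, 4.21, 4.35, 3.51 and 5.02 CPM in unfed libraries, low levels that nevertheless did not overlap (log2 fold change -1.65 ± 0.25, adjusted p 3.14e-04). Of the step's other tested genes, whose descriptions are spelled otherwise, none passed by edgeR, adjusted or unadjusted: 2 models of the E1-like enzyme ATG7 (-0.11 ± 0.16 and -0.23 ± 0.29), atg10.L, of another E2-like enzyme (-0.37 ± 0.24), and a second ATG3 model (0.16 ± 0.14).

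The ATG4 proteases prepare ATG8 proteins for conjugation and also remove them again. Of the 3 genes caught by description, atg4b.L was lower in fed libraries and the others did not pass. With 24.6% of all tested genes lower, 1 of 3 is near the background. Among ATG4 genes with other descriptions, atg4b.S was lower (-0.65 ± 0.21) and atg4c.L was higher (0.77 ± 0.20). An ATG4A model, atg4a.S and atg4d.S were not called. atg4b.L had 14.5, 16.3, 13.3, 13.4 and 16.3 CPM in fed libraries, against 15.7, 21.2, 21.8, 20.6 and 27.4 CPM in unfed libraries, lower in fed in each of 5 pairs but with overlapping ranges (log2 fold change -0.52 ± 0.14, adjusted p 0.0103). atg4c.S had 13.3, 11.5, 15.9, 17.2 and 11.1 CPM in fed libraries, against 13.3, 12.8, 16.9, 9.16 and 10.5 CPM in unfed libraries, without a separation (0.14 ± 0.17, adjusted p 0.520). atg4d.L had -0.29 ± 0.17 (adjusted p 0.172).

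Of the 5 tested ATG8 genes caught by description, 3 were lower in fed libraries and none was higher (median log2 fold change -0.82). The background was 24.6% of all tested genes lower and 24.1% higher. gabarap.L was the most abundant per kilobase of all autophagy genes caught by description, at 139 CPM per kilobase in fed, against 140.1 in unfed libraries. It had 83.2, 96.1, 63.2, 109 and 101 CPM in fed libraries, against 80.7, 90.3, 87.2, 105 and 93.9 CPM in unfed libraries. The states overlapped widely, the log2 fold change was -0.03 ± 0.14 (adjusted p 0.885), and its sign changed in 4 of 19 alternative analyses, while it was called lower in 1, with a length trend removed (adjusted p 0.0335). gabarapl1.S (-1.05 ± 0.20, adjusted p 0.00125), a second gabarapl1 gene without a homeolog suffix (-0.82 ± 0.19, adjusted p 0.00388) and gabarapl2.L (-0.76 ± 0.26, adjusted p 0.0317) were lower in fed libraries. The call of gabarapl2.L was lost without either unfed 10 dpf library, either unfed 13 dpf library, or the fed 10 dpf library of experiment 2, with adjusted p-values up to 0.0817 over the alternatives. The LC3B-like gene LOC108715162 stayed under 4 CPM in all libraries and did not pass (-0.85 ± 0.36, adjusted p 0.0700). It did pass in 6 of 19 alternative analyses, among them those without the fed 13 dpf (adjusted p 0.0170) or the unfed 10 dpf library (0.0485) of experiment 1 and with the age of the stage field (0.00646). Among the 5 genes caught by description, gabarap.L made up 51.9% to 72.4% of the summed CPM per kilobase in fed, against 44.3% to 54.8% in unfed libraries. The share of gabarapl2.L was 14.0% to 24.1% in fed, against 21.8% to 30.4% in unfed libraries. That of gabarapl1.S was 5.18% to 9.69% in fed, against 7.84% to 13.1% in unfed libraries. ATG8 genes with descriptions spelled otherwise are outside these counts and shares. Of them, map1lc3b.S (-1.97 ± 0.22) and models of light chain 3 beta (-1.32 ± 0.17) and alpha (-0.99 ± 0.29) were lower in fed libraries. map1lc3a.L (-0.15 ± 0.14) and gabarapl2.S (-0.43 ± 0.26) were not called.

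Sequestosome 1 (p62), the receptor that links ubiquitin-tagged cargo to ATG8 proteins, is itself degraded by autophagy, so that its transcript and its protein need not move together. sqstm1.L had 88.1, 56.4, 43.8, 76.97 and 138 CPM in fed libraries, against 95.6, 185, 109.6, 128 and 247 CPM in unfed libraries. In each of 5 pairs the fed library was lower, yet the fed 16 dpf library was above 3 of the 5 unfed libraries, and the unfed 16 dpf library was the highest of all. Its log2 fold change was -0.92 ± 0.21 (adjusted p 0.00367). Per kilobase it came second to gabarap.L among the autophagy genes caught by description, at 42.8 CPM per kilobase in fed, against 81.2 in unfed libraries.

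The DRAM family, membrane proteins of the lysosome whose member DRAM1 is induced by p53 in human cells, was matched by 10 gene models, of which 8 were too low to test. dram1.L had 4.12, 1.93, 3.18, 3.49 and 3.20 CPM in fed libraries, against 3.35, 7.74, 5.52, 6.79 and 9.74 CPM in unfed libraries. It was lower in fed in 4 of 5 pairs, the exception being 10 dpf of experiment 1 (log2 fold change -0.998 ± 0.28, adjusted p 0.0119). This gene is dram1.L in the gene table and is described as the S homeolog in the deposited table. LOC108696132, described as DRAM1-like, had 0.249, 0.362, 0.122, 0.134 and 0.761 CPM in fed libraries, against 0.288, 2.58, 1.27, 8.26 and 21.2 CPM in unfed libraries. Its fed values correspond to a few reads at most, the unfed ones spread from 0.288 CPM at 10 dpf of experiment 1 to 21.2 CPM at 16 dpf, and it entered the test through unfed libraries only. The fitted log2 fold change of -4.04 ± 0.48 (adjusted p 7.93e-05) depends on the prior count, since the fed values are near 0, and is no bound.

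**Figure D3:**
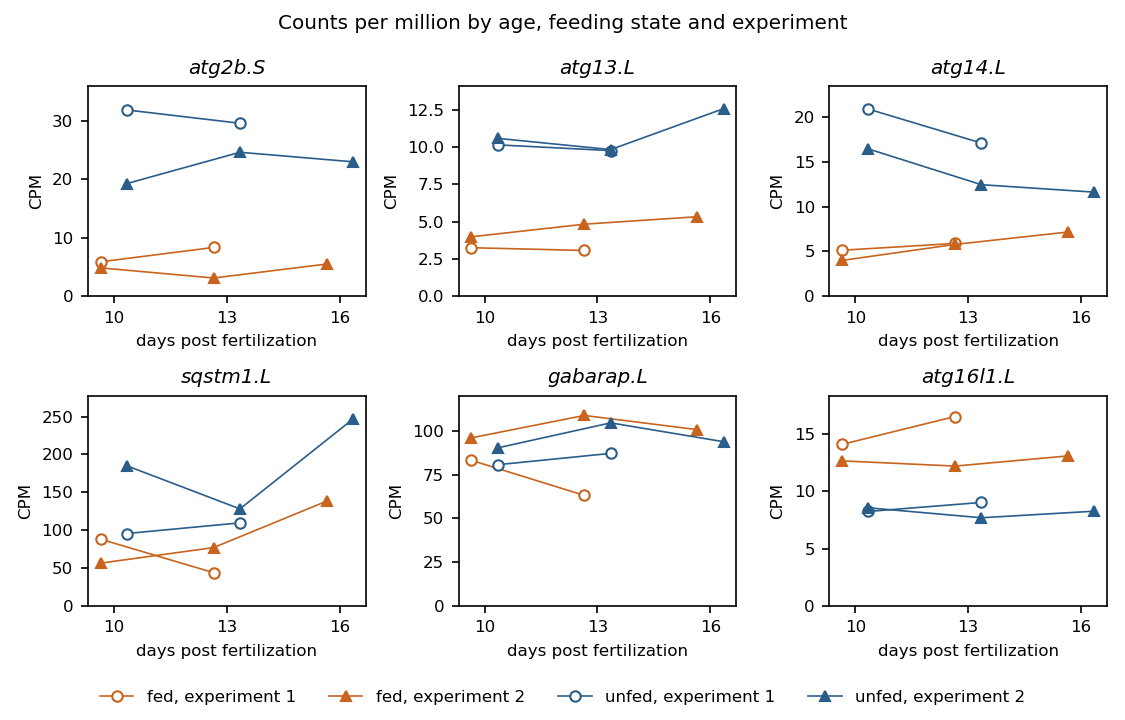
CPM of 6 autophagy genes against age in days post fertilization, with fed libraries in orange and unfed libraries in blue, shifted slightly left and right of each age; open circles are experiment 1 and filled triangles experiment 2. atg2b.S, atg13.L and atg14.L are lower in every fed library, sqstm1.L and gabarap.L overlap between the states, and atg16l1.L is higher in every fed library.

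The same comparison was made at each age. At 10 dpf, 15 of the 41 genes were lower in fed libraries and none was higher by edgeR (0 by DESeq2, and 1 at an unadjusted p under 0.05), against 9.08% of all tested genes lower and 11.1% higher. At 13 dpf, 17 were lower and 2 were higher, against 14.2% lower and 16.5% higher of all tested genes. The 2 genes higher at 13 dpf were atg5.L (adjusted p 0.0353) and atg16l1.L (adjusted p 0.0292). The genes lower at both ages included atg2b.S (adjusted p 8.45e-04 at 10 dpf and 3.70e-04 at 13 dpf), atg14.L (6.59e-04 and 0.00259) and atg13.L (0.00397 and 0.00503). Without the unfed 10 dpf library of experiment 2 the count lower at 10 dpf fell to 4, and without the fed one to 5. Without the unfed 13 dpf library of experiment 1 the count lower at 13 dpf fell to 10, and without that of experiment 2 to 11. In the fit without experiment as a replicate block, 8 genes were lower at 10 dpf and 9 at 13 dpf, and none was higher at either age.

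At 16 dpf there was 1 library in each state and no test. Of the 41 genes, 15 were at least 2-fold lower and 1, becn1.L, was at least 2-fold higher in the fed library, against 13.9% lower and 11.7% higher of all tested genes. The median log2 ratio was -0.82 for the autophagy genes, against -0.0006 for all tested genes. Among the 40 genes past the filter in both states, atg2b.L (-2.37), ulk2.L (-2.08) and atg2b.S (-2.01) had the lowest log2 ratios. Scaled by gene totals without TMM, 23 of the 41 genes were at least 2-fold lower and 0 were higher, against 20.9% lower and 7.54% higher of all tested genes, and the median log2 ratio was -1.09 for the autophagy genes, against -0.27 for all tested genes.

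No autophagy gene passed the test for a change of the feeding difference between 10 and 13 dpf (background 0% of all tested genes in either direction). At an unadjusted p under 0.05, 2 of the 41 were lower, ulk2.L and LOC108696132, and 0 were higher. Nor did any gene pass edgeR's test between 13 and 10 dpf within fed tadpoles (background 0%, 0 lower and 1 higher at an unadjusted p under 0.05) or within unfed tadpoles (background 0.00418% lower and 0.00836% higher, 0 lower and 1 higher unadjusted). Taken by experiment, the median log2 difference of the 41 genes was -0.39 at 10 dpf and -0.55 at 13 dpf in experiment 1, and -0.97, -0.73 and -0.83 at 10, 13 and 16 dpf in experiment 2, against -0.01 to -0.04 over all tested genes in the 5 pairs. Between 29 and 33 of the 41 genes were lower in the fed library of each pair. The same count was not taken over all tested genes. The test for a difference in the feeding effect between the experiments called 0 of the 41 genes (background 0% in either direction), with 3 lower and 0 higher at an unadjusted p under 0.05. DESeq2 called 0 of the 41 genes in each of these tests.

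Of the homeolog pairs with both copies tested, 10 held an autophagy gene. The balance of L to S counts differed with feeding in 4 of the 10 at an adjusted p under 0.05, by limma over all 5375 testable pairs, where the background was 22.3%. For atg13 the log2 of L over S was -1.23 to 0.00 in fed libraries, against 0.51 to 1.40 in unfed libraries. In counts, the S copy was thus equal to or above the L copy in all fed libraries and below it in all unfed ones. The counts are not scaled by transcript length (3360 bases for L and 4016 for S) and do not rank the copies per kilobase. The shift of the ratio was -1.52 ± 0.25 (adjusted p 0.00790). atg9a shifted the other way. Its log2 of L over S averaged 0.87 ± 0.37 in fed, against -0.09 ± 0.53 in unfed libraries (SD, n = 5 each), a shift of 0.96 ± 0.15 (adjusted p 0.00675), with the S copy falling by more than the L copy.

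For atg4c the S copy is an autophagy gene by description and the L copy has another description. The shift was 0.63 ± 0.16 (adjusted p 0.0326), with atg4c.L higher in fed libraries (0.77 ± 0.20, adjusted p 0.00822). For atg16l1, both copies of which were higher in fed libraries, the shift was 0.35 ± 0.10 (adjusted p 0.0464). The calls of atg13 and atg9a held in all 15 and 16 alternative analyses that could be run for them, while that of atg16l1 was lost in 14 (adjusted p up to 0.177) and that of atg4c in 9 (up to 0.0876). Leaving out any 1 library ended the call of atg16l1, and leaving out any but the 10 dpf libraries of experiment 1 ended that of atg4c. Not past the threshold were atg101 (0.15 ± 0.14), atg2b (0.25 ± 0.17), ulk1 (0.39 ± 0.21), gabarapl2 (-0.33 ± 0.10, adjusted p 0.0565), atg4b (0.16 ± 0.19) and dram1 (0.45 ± 0.30). The gabarapl2 ratio did pass by limma when only pairs with both copies at 50 or more counts on average were tested (adjusted p 0.0263). How reads that match both copies were counted is not given in the sources used here.

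**Figure D4:**
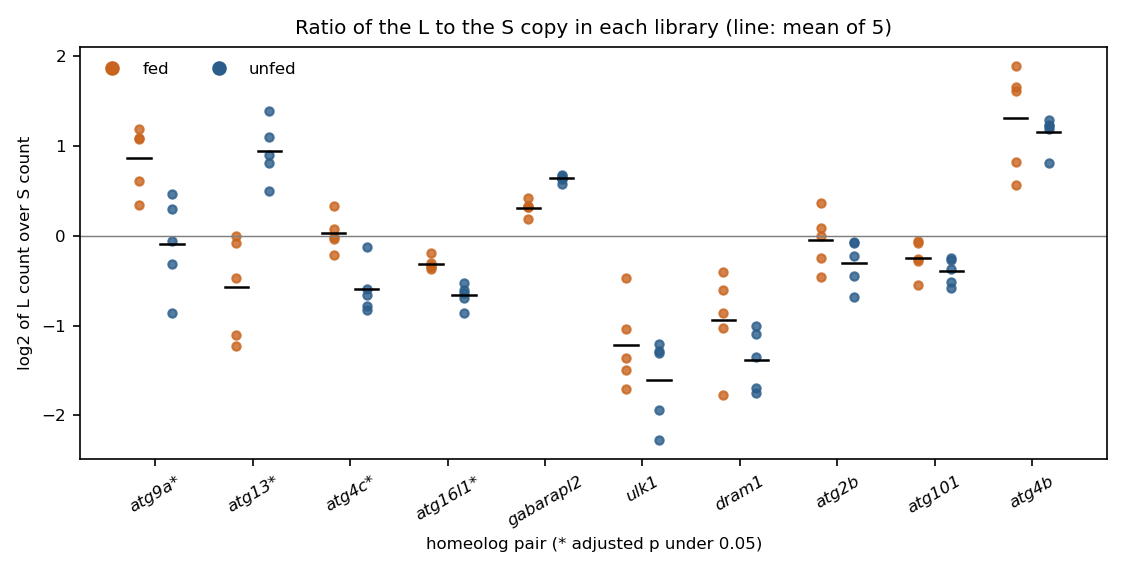
Log2 of the L count over the S count in each library for the 10 homeolog pairs that hold an autophagy gene, with fed libraries (orange) left of unfed libraries (blue) and a line at the mean of 5; stars mark an adjusted p under 0.05. In atg13 all 5 fed points lie at or below 0 and all 5 unfed points above it, and in atg9a the fed mean is higher.

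Genes of the same protein families whose descriptions are spelled otherwise, such as light chain 3 alpha without the 1A/1B, were looked up by name, and 20 of 21 could be tested. Of these 20, 7 were lower in fed libraries and 2 were higher (35% and 10%, against 24.6% and 24.1% of all tested genes). map1lc3b.S, an LC3B gene, had 13.02 to 35.8 CPM in fed, against 70.8 to 97.3 CPM in unfed libraries (-1.97 ± 0.22, adjusted p 5.71e-05). dram1.S (-1.45 ± 0.17, adjusted p 6.81e-05) and the WIPI family gene wdr45.S (-1.08 ± 0.16, adjusted p 3.02e-04) were lower as well. wdr45b.S, which encodes WIPI3, was higher (0.58 ± 0.13, adjusted p 0.00302), as was atg4c.L. The other 4 lower genes were 2 models described as L homeologs of light chain 3 beta (-1.32 ± 0.17) and light chain 3 alpha (-0.99 ± 0.29) that the gene table does not name, atg4b.S (-0.65 ± 0.21) and wipi1.S (-0.47 ± 0.13). The gene that the gene table names map1lc3a.L is a separate model and was not called (-0.15 ± 0.14, adjusted p 0.371).

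Genes around the core machinery were read from 7 lists. Over the 151 tested genes of these lists, 57 were lower in fed libraries and 24 were higher. The number of list genes called ranged from 63 to 82 over 19 alternative analyses, and from 63 to 79 with single libraries left out. Over all tested genes, 24.6% were lower and 24.1% were higher. Among 33 genes of mTORC1, its inhibitors and amino acid sensing, 13 were lower and 4 higher (39.4% and 12.1%, median log2 fold change -0.07). Those with the smallest p were fnip2.L (-2.10 ± 0.14) and fnip2.S (-2.33 ± 0.19), which encode a partner of folliculin, and sesn1.L (-2.03 ± 0.16), which encodes a sestrin, an inhibitor of mTORC1. Their CPM ranges were 5.498 to 9.36 in fed, against 21.4 to 36.01 in unfed libraries for fnip2.L, and 8.45 to 12.5 in fed, against 33.96 to 50.8 in unfed libraries for sesn1.L.

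Of 17 genes of AMPK and its kinases, 4 were lower and 3 higher, or 23.5% and 17.6%, which is no more than over all tested genes (24.6% and 24.1%). Called genes with the smallest p were stk11.S, the gene of the AMPK kinase LKB1, higher (1.06 ± 0.16), prkag1.L, of an AMPK subunit, higher (0.67 ± 0.12) and camkk2.L, of another AMPK kinase, lower (-0.92 ± 0.15). Of 15 genes of the FoxO and TFEB families and nutrient transcription factors, 8 (53.3%) were lower and 0 were higher by edgeR. Their median was -0.50, and 0 were higher at an unadjusted p under 0.05 too. crebrf.S, a gene of a regulator of CREB3, had 0.249 to 1.10 CPM in fed, against 9.51 to 13.7 CPM in unfed libraries (-4.09 ± 0.26), crebrf.L had -3.13 ± 0.27, and ddit3.S, which encodes the stress factor CHOP, had -1.65 ± 0.29. Of these, crebrf.S entered the test through unfed libraries only, and its fold change depends on the prior count. The lysosomal regulator genes tfeb.S (-0.57 ± 0.20, adjusted p 0.0324) and tfe3.S (-0.78 ± 0.16, adjusted p 0.00208), named after their values were seen, were among the 8. Of the FoxO genes, likewise named afterwards, only foxo4.L was called (-0.46 ± 0.17, adjusted p 0.0437 by edgeR). Both copies of foxo1, foxo3 and atf4 were not called.

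A list of other subunits and regulators around the phosphatidylinositol 3-kinase had 10 of 16 genes lower and 2 higher (62.5% and 12.5%, median -0.81). The shares over all tested genes were 24.6% lower and 24.1% higher. Its genes with the smallest p were rb1cc1.S (-1.499 ± 0.15) and rb1cc1.L (-0.85 ± 0.13), whose product belongs to the ULK complex, and mtmr3.S (-1.06 ± 0.16), whose product removes the phosphoinositide mark. The 2 higher genes, named after their values were seen, were those of the catalytic and the regulatory subunit of the kinase itself, pik3c3.L (0.54 ± 0.15, adjusted p 0.0113) and pik3r4.L (0.57 ± 0.14, adjusted p 0.00683), while the S copy pik3r4.S was not called (-0.10 ± 0.15, adjusted p 0.599). Of 33 genes of cargo receptors other than sequestosome 1, 15 were lower and 7 higher (45.5% and 21.2%, median -0.36). The share higher was under the 24.1% over all tested genes, and the share lower was above the 24.6%. The receptor gene for endoplasmic reticulum retreg2.L was lower (-1.08 ± 0.13), while nufip1.L (1.79 ± 0.20), a ribosome receptor gene, and phb2.L (1.03 ± 0.13), a mitochondrial receptor gene, were higher.

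Of 17 genes of membrane sources, 4 were lower and 5 higher (23.5% and 29.4%, near the shares over all tested genes), with tp53inp1.S (-2.35 ± 0.23) and tp53inp1.L (-2.79 ± 0.34), of a stress protein that binds ATG8 proteins, lower and tmem41b.L (1.25 ± 0.15), of a lipid scramblase of the endoplasmic reticulum, higher. tp53inp1.L had 0.134 to 0.748 CPM in fed, against 1.49 to 4.79 CPM in unfed libraries. It entered the test through unfed libraries only, and its fold change depends on the prior count. Of 20 genes of autophagosome fusion with the lysosome, 3 were lower and 3 higher (15% in each direction, under the shares over all tested genes), with rab7b.S (-1.59 ± 0.29) and rab7b.L (-0.59 ± 0.16), of a small GTPase, lower and ykt6.S (0.48 ± 0.12), of a SNARE protein, higher. rab7b.S, at 0.536 to 1.12 CPM in fed, against 2.04 to 4.57 CPM in unfed libraries, also entered the test through unfed libraries only.

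**Figure D5:**
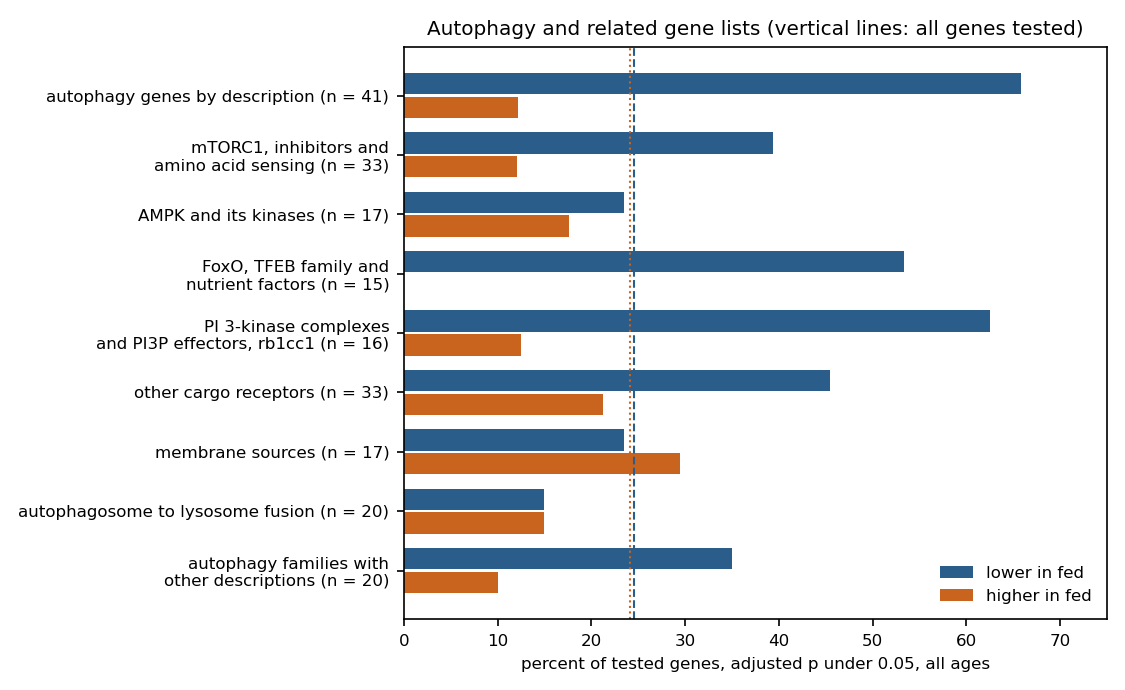
Percent of tested genes lower (blue) and higher (orange) in fed libraries at an adjusted p under 0.05 over all ages, for the autophagy genes by description and each related list, with the number tested in brackets; the dashed blue line (24.6% lower) and the dotted orange line (24.1% higher) give the values over all genes tested. The autophagy genes by description have 27 of 41 lower, and the fusion list has 3 of 20 in each direction.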

How the data were processed

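RNA of pooled intestinal tubes was sequenced on libraries made by Illumina protocols, per the labels' protocols. The authors aligned with HISAT2 and counted with featureCounts, per the submitters' processing notes; the sources used here give no versions, genome build, strandedness or treatment of reads that match several transcripts. Both deposited tables list raw counts for 63876 transcripts in 10 libraries, beside 10 RPKM columns that were not used, and the deposited transcript length in bases (another unit, used only to scale levels per kilobase). Library totals in the tables were 12664503 to 17967762 counts, with 0.0738% of counts in rows without a name and 0.136% in named rows without an accession, both left out. Since 83.9% of 9723 genes with several variants had their 2 highest variants within 10% of each other, reads appear under more than 1 variant, and the highest variant of each gene was used.

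Accessions were matched to RefSeq gene names (Xenopus laevis v10.1), which named 26905 of 34267 genes holding 92.7% of gene counts, and 39 of the 50 autophagy genes. The other 11 are called by their deposited descriptions. No coordinates or sequences were used.

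Feeding was tested with edgeR 4.0.16 (quasi-likelihood F test, TMM, filterByExpr, robust) in R 4.3.3 over 23928 genes and all 10 libraries, with Benjamini-Hochberg adjustment and a threshold of 0.05. Terms were experiment, age and feeding, or experiment and the 6 groups for single ages. The experiment named in the labels served as the replicate block: libraries of the same experiment deviated together from their group means (correlations of 0.334 to 0.523 over 6 pairs of groups). The standard error is the log2 fold change divided by the square root of F. L to S ratios were tested with limma 3.58.1 on log2 counts plus 1 over 5375 pairs. At 16 dpf, log2 ratios used a prior count of 2 and a 2-fold limit. The procedures were also run on simulated counts with few genes changed by feeding. These counts held no effect of experiment or age, so they could not check the block.

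Alternatives were DESeq2 1.42.0, other scalings, no filter, transcript sums, no replicate block, the stage field's age, a length trend removed, each library left out, and, chosen after seeing the data, both libraries with differing ages left out. Given library by library were up to 8 called genes in each direction, over all ages. These had the largest changes among called genes with the same sign in all 5 pairs, and fewer than 8 qualified upward. Also given so were the most abundant gene per kilobase of each role and both copies of pairs whose ratio passed. In each related list the 3 genes with the smallest p were named. The genes and lists were chosen with earlier results of these data known.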

Additional observations from a re-analysis of the deposited data

Results flagged for a closer look

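Among 82 sets of 5 libraries (41 genes, fed and unfed), 3 held a library farther from its nearest neighbour than Dixon's 95% limit for 5 values allows, and chance gives about 1 in 20. ulk1.S was at 10.3 CPM in the fed 13 dpf library of experiment 1, while the other fed libraries were at 2.28 to 4.49 CPM. In the same library atg9b.L was at 10.5 CPM, with the other fed libraries at 6.51 to 7.37 CPM. This library is 1 of the 2 whose title and stage field give different ages. atg4d.L was at 7.15 CPM in the fed 16 dpf library, below the other fed libraries, which had 9.16 to 9.86 CPM.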

How the results depend on the processing

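Of the 27 genes called lower over all ages, 24 were called in each of 19 alternatives, the exceptions being ulk2.L, gabarapl2.L and ambra1.S, and the count stayed between 24 and 28. Of the 5 called higher, atg16l1.L was called in each. The count higher over all ages was 1 with upper quartile scaling, 2 with DESeq2, without the replicate block, with the age of the stage field, with a length trend removed and without both libraries with differing ages, 3 without a low-count filter and with transcript sums, and 1 to 4 with single libraries left out. Upper quartile scaling moved the median of all genes by -0.11 log2 units, to -0.15, with 29.4% lower and 20.3% higher, and the median of the autophagy genes to -0.95; removing a length trend gave -0.69. At 10 dpf the count lower was 8 without the replicate block and 4 to 21 with single libraries left out, and the count higher was 1 with transcript sums or a length trend removed and 0 to 1 with single libraries left out. At 13 dpf the count lower was 9 without the replicate block and 10 to 17 with single libraries left out. The count higher at 13 dpf was 0 with upper quartile scaling, DESeq2, no replicate block or the stage field's age, 1 with transcript sums or without both libraries with differing ages, and 0 to 2 with single libraries left out. The L to S ratio differed in 2 pairs with the stage field's age and in 2 to 3 with single libraries left out. At 16 dpf, totals without TMM gave 23 genes lower and 0 higher. The sign of gabarap.L, not called, turned to 0.062 with the stage field's age, 0.12 without fed 13 dpf of experiment 1, 0.01 without unfed 13 dpf of experiment 1 and 0.13 without both libraries with differing ages, and ranged from -0.102 to 0.116 with single libraries left out, and that of atg4c.S, not called, to -0.001 and -0.015 without the fed and the unfed 13 dpf library of experiment 2, in a range up to 0.219. The causes were not tested. A difference between experiments has no value without the replicate block. Low genes are limited by depth: 3 counts correspond to 0.302 to 0.428 CPM before the rescaling by TMM, for counting error only.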
